A study of Mus musculus with 9 samples.

Results

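The genes described here are 10 genes of calcium cycling in cardiomyocytes, named in a list by the roles of their proteins, with earlier results of these data known: Atp2a2, Pln, Sln, Ryr2, Trdn, Casq2, Hrc, S100a1, Cacna1c and Slc8a1. All 10 were found by symbol among the 25468 genes of the deposited table, and all 10 were among the 13514 genes with a mean of 1 FPKM or more that were tested. FPKM counts sequenced fragments relative to transcript length and library size, so that levels can be compared between genes of different length. The libraries came from total RNA of hearts of wild-type mice. There were 3 libraries of hearts 7 days after acute myocardial infarction (MI day 7), 3 of hearts 1 day after it (MI day 1), and 3 of sham-operated hearts. The collection day of the sham hearts is not given, and the same sham libraries served both times. The region of the heart that was taken and whether each library was a separate animal are not given either, so the p-values measure the spread between libraries, which may be partly technical. The series also describes Hdc-/- hearts, which were not analysed here.

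At each heartbeat, the L-type calcium channel in the surface membrane lets in a small amount of calcium, which opens the ryanodine receptor of the sarcoplasmic reticulum, the calcium store of the muscle cell. Calcium released from the store makes the sarcomeres contract. The pump SERCA then returns calcium to the store and the sodium-calcium exchanger carries the rest out of the cell. Phospholamban and sarcolipin are small membrane proteins that slow the pump, calsequestrin and the histidine-rich calcium binding protein hold calcium in the store, and triadin ties calsequestrin to the ryanodine receptor. In the heart muscle of several species, lower levels or activity of SERCA after infarction and in heart failure are a well known observation.

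Library totals were 521643 to 679204 FPKM at MI day 7, 597380 to 729940 FPKM at MI day 1 and 768943 to 792632 FPKM in sham hearts. Every sham total thus lay above every infarcted total, so the levels below depend on how libraries are scaled. The number of reads behind a value is unknown. Mitochondrially encoded genes held 24.4% of the sum in MI day 7 replicate 1 and between 34.2% and 39.8% in the other 8 libraries. The heart label was checked against muscle markers: all 12 genes of a sarcomere list were present, with a summed level of 18953 to 30844 FPKM at MI day 7, 21888 to 28326 FPKM at MI day 1 and 39528 to 43545 FPKM in sham hearts. Libraries differed in tissue that was not ventricular muscle. The 4 airway and lung epithelium markers summed to 1516 FPKM in MI day 1 replicate 2 and to 241 FPKM in sham replicate 1, against 18.9 FPKM or less elsewhere. Skeletal muscle markers summed to 265 FPKM in MI day 7 replicate 2 and to 9.40 FPKM or less elsewhere. The 5 fibroblast markers summed to 3614 to 4998 FPKM at MI day 7, 1473 to 1949 FPKM at MI day 1 and 983 to 1232 FPKM in sham hearts. They did not all move alike at MI day 1. Col1a1, Col3a1 and Pdgfra were then called higher than in sham hearts and Postn was not called. Dcn lay under every sham library (477 to 683 FPKM, against 689 to 730 FPKM). The 5 macrophage markers summed to 280.5 to 343 FPKM at MI day 7, 242 to 284 FPKM at MI day 1 and 134 to 216 FPKM in sham hearts. The 4 neutrophil markers summed to 28.1 to 68.4 FPKM at MI day 7, 112 to 303 FPKM at MI day 1 and 46.6 to 63.4 FPKM in sham hearts. All 4 were called higher at MI day 1 than in sham hearts, beside 13.4% of all genes tested. The 4 fat cell markers summed to 472 FPKM in sham replicate 1 and 116 FPKM in MI day 1 replicate 2, against 60.6 FPKM or less elsewhere. These differences in marker levels ran alongside every comparison with sham hearts below, and their part in the results was not tested. In bulk tissue, fewer cardiomyocytes and less RNA per cardiomyocyte cannot be told apart.

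At MI day 7, 6 of the 10 genes fell against sham hearts: Pln, Atp2a2, Cacna1c, Trdn, S100a1 and Casq2. The median log2 fold change over all 10 genes was -0.70, against -0.02 over all genes tested, and 17.3% of all genes were called lower in the same comparison by limma at a Benjamini-Hochberg adjusted p under 0.05. At MI day 1, 4 of the 10 fell, namely Pln, S100a1, Casq2 and Trdn. The median was then -0.52 against -0.01 over all genes, and 14.7% of all genes were called lower. In each of these comparisons 8 of the 10 genes had every infarcted library under every sham library, which was so for 28.8% of all genes at MI day 7 and for 25.1% at MI day 1, while 25% and 22.5% of all genes had every infarcted library above; the exceptions were Ryr2 and Sln both times. No member was called higher than in sham hearts by limma, where 15.7% of all genes were called higher at MI day 7 and 13.4% at MI day 1, and 0 members were higher at an unadjusted p under 0.05. The 12 sarcomere genes, taken as a yardstick for the muscle cells as a whole, were lower in 6 cases at MI day 7 and in 8 cases at MI day 1, with medians of -0.72 and -0.66.

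These counts depended on single libraries and on the scaling. Without MI day 7 replicate 1, MI day 7 replicate 2 or sham replicate 2, 3 genes in place of 6 were called lower at MI day 7, and without MI day 7 replicate 1 the count at MI day 1 was 7 in place of 4. Without both libraries that held airway markers, 3 genes were called lower at MI day 7 and 0 at MI day 1 (Pln -1.23, Casq2 -0.93, Trdn -0.55 and S100a1 -0.95, on the log2 scale). Over all 13514 genes tested, 1047 were then called lower at MI day 7 and 146 at MI day 1, in place of 2341 and 1993. The loss of calls was thus shared by genes in general. Rescaled to a common total (TPM), the median gene itself moved to 0.30 above sham hearts at MI day 7 and to 0.23 at MI day 1. The share of called genes that were higher was then 87.8% in place of 47.6% at MI day 7 and 80.3% in place of 47.7% at MI day 1. Relative to that median, Pln stood at -1.25 and -1.19 and Atp2a2 at -0.76 and -0.44 in TPM at MI day 7 and MI day 1, and Ryr2 at -0.27 and 0.06.

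**Figure D1:**
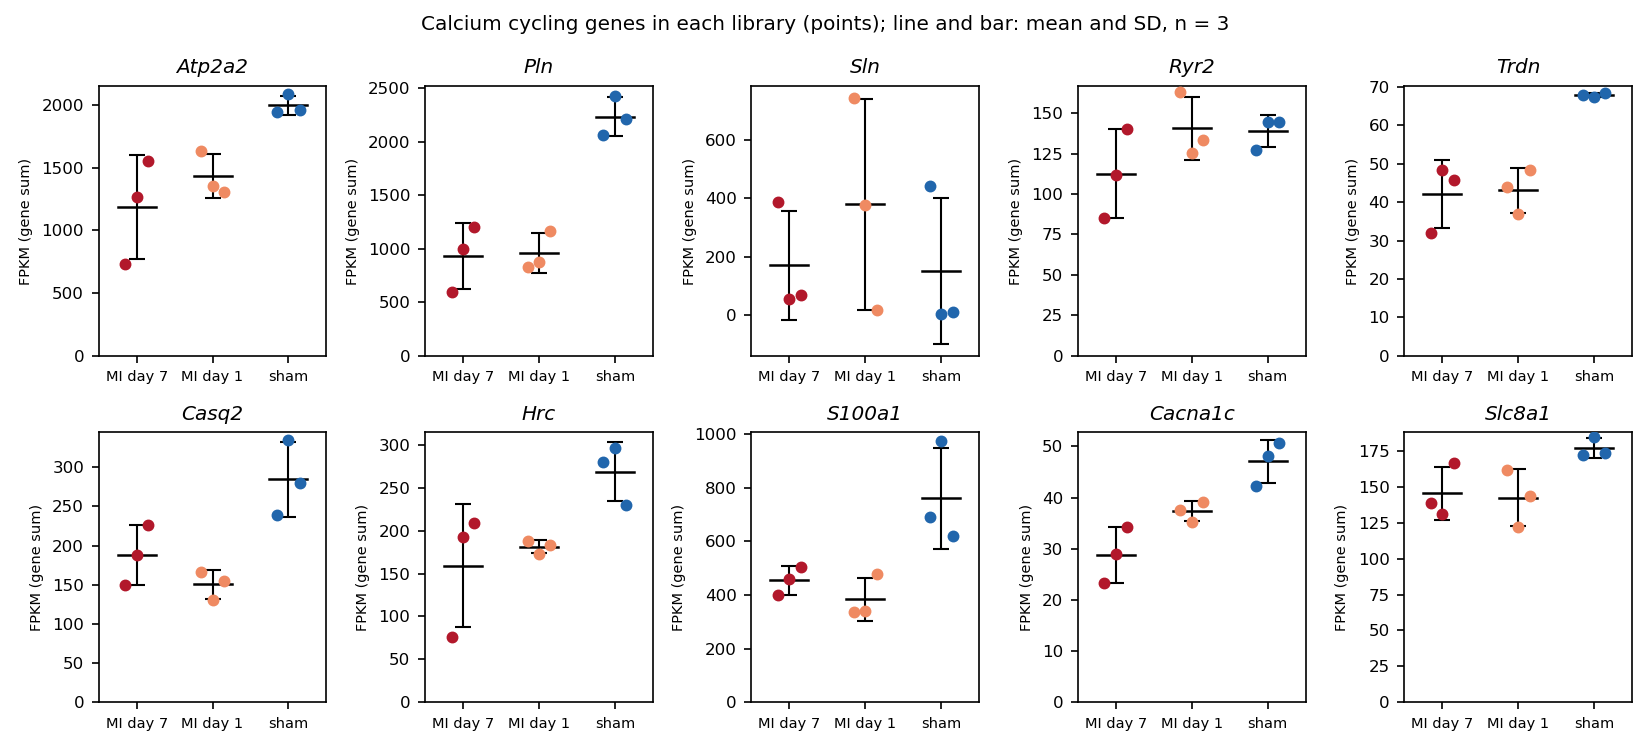
Level of each of the 10 genes in FPKM in every library, with 1 panel per gene and 1 point per library (MI day 7, MI day 1 and sham from left to right; the line is the mean of the 3 libraries and the bar their SD). Pln shows the widest gap, with MI libraries at 595 to 1205 FPKM and sham libraries at 2068 FPKM or more, while Ryr2 overlaps between groups and Sln varies widely within each group.

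In sham hearts Pln and Atp2a2 stood far above the others, with means of 2236 and 1996 FPKM and ranges that overlapped; among all genes of the table they had rank 27 and rank 31. S100a1 followed at 760.3 FPKM. Casq2 and Hrc came next with overlapping ranges, then Slc8a1 and Ryr2, whose ranges did not overlap, with Sln spread across both, then Trdn at 67.8 FPKM and Cacna1c at 47.0 FPKM. After infarction Atp2a2 came first: its lowest library at MI day 1, with 1308 FPKM, lay above the highest of Pln, with 1171.5 FPKM, while at MI day 7 their ranges overlapped again. Summed, the 10 genes held 0.665%, 0.844% and 0.986% of the nuclear FPKM in MI day 7 replicates 1 to 3, 1.08%, 0.908% and 0.837% at MI day 1, and 1.27%, 1.36% and 1.22% in sham hearts. MI day 7 replicate 1 had the lowest level of its group in 8 of the 10 genes and replicate 3 the highest in 8, so the libraries at MI day 7 were ordered much alike across the genes. This order was not particular to the members. The library totals (521643, 644943 and 679204 FPKM) and the sarcomere sums (18953, 26427 and 30844 FPKM) of MI day 7 replicates 1 to 3 rose in the same way.

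The pump itself is encoded by Atp2a2 (ENSMUSG00000029467, chromosome 5), which makes SERCA2a, the form of heart muscle, and the more widely expressed SERCA2b by alternative ends of the same coding sequence. Atp2a2 had 734, 1269 and 1555 FPKM in the MI day 7 libraries, 1635.5, 1354 and 1308 FPKM at MI day 1, and 1945, 2083 and 1960.0 FPKM in sham hearts. Every infarcted library lay under every sham library, and the spread at MI day 7 (1186 ± 417 FPKM, SD, n = 3) was wider than that at MI day 1 (1433 ± 177 FPKM) and in sham hearts (1996 ± 75.5 FPKM). Atp2a2 fell at MI day 7 (log2 fold change -0.82, SE 0.25, limma adjusted p = 0.0388). Its log2 difference at MI day 1 was -0.48 (SE 0.25, limma adjusted p = 0.186, 95% interval -1.06 to 0.10). The call at MI day 7 was lost in 16 of 25 alternative settings, including the removal of any library other than MI day 7 replicate 3 and MI day 1 replicate 3 (adjusted p 0.0510 to 0.107 without the library; 0.0177 to 0.438 over all settings). Without MI day 7 replicate 1 the log2 difference at MI day 7 was -0.51. Atp2a2 was called lower at MI day 1 once MI day 7 replicate 1 was left out (adjusted p = 0.0293, range over settings 0.0293 to 0.824).

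The deposited table holds both Atp2a2 forms, and their coding ends are shown because the share of each differed between groups without overlap. The forms share 2983 coding bases and end in 14 and 152 bases of their own, giving proteins of 998 and 1044 amino acids. The last 24 shared bases are in lower case and the bases of each form alone are in capitals, as read from the GENCODE M21 transcripts (GRCm38, chromosome 5).
Atp2a2 short coding form, SERCA2a: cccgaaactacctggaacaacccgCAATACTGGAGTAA
Atp2a2 long coding form, SERCA2b: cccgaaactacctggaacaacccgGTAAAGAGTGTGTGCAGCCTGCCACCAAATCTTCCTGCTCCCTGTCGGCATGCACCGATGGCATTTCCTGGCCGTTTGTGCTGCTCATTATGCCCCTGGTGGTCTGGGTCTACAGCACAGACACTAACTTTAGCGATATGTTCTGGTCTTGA
The long form (ENSMUST00000031423) held 25.6%, 22.9% and 23.1% of Atp2a2 FPKM in the MI day 7 libraries, 19.6%, 19.5% and 19.5% at MI day 1, and 18.4%, 18.6% and 17.6% in sham hearts. Its share was thus highest at MI day 7 (23.9% ± 1.49, SD, n = 3), between at MI day 1 (19.5% ± 0.0652) and lowest in sham hearts (18.2% ± 0.532), and no library of 1 group reached into the range of another. The levels behind these shares were 188, 291 and 360.1 FPKM of the long form at MI day 7, 321, 264 and 255 FPKM at MI day 1, and 358, 387 and 345 FPKM in sham hearts. The short form (ENSMUST00000177974) had 546, 978 and 1195 FPKM at MI day 7, 1315, 1090.2 and 1053 FPKM at MI day 1, and 1587, 1695.5 and 1615 FPKM in sham hearts. The short form thus lay under the sham range in every infarcted library, while the long form overlapped with it at MI day 7. No test was made on the shares: reads common to both forms were divided between them by a step that no source used here names, and other cells of the heart use the long form too, so the part of the cell mix in these shares was not tested.

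Phospholamban, the product of Pln (ENSMUSG00000038583, chromosome 10), slows the pump until it is phosphorylated. Of the members called at each time, its transcript had the largest log2 fold change. Its coding sequence of 159 bases, for 52 amino acids, is given in full for the small protein on which the ratio below turns.
Pln coding sequence, GENCODE M21 (GRCm38, chromosome 10): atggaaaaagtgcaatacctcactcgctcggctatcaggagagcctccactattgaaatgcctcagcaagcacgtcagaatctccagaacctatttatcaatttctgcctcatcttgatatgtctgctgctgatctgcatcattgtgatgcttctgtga
Pln had 595, 1001.5 and 1205 FPKM at MI day 7, 834, 875 and 1171.5 FPKM at MI day 1, and 2068, 2430.5 and 2209.9 FPKM in sham hearts. The highest infarcted library thus stood far below the lowest sham library at both times. Means were 934 ± 310.4 FPKM at MI day 7, 960.1 ± 184 FPKM at MI day 1 and 2236 ± 183 FPKM in sham hearts (SD, n = 3 each). Pln fell at MI day 7 (log2 fold change -1.32, SE 0.26, limma adjusted p = 0.00898) and at MI day 1 (-1.23, SE 0.26, limma adjusted p = 0.0112). The fall at MI day 7 was called in all 25 alternative settings, with adjusted p between 0.00421 and 0.0411. The call at MI day 1 held in 24 of 25 and was lost without both libraries with airway markers (adjusted p = 0.0950, range over settings 0.00167 to 0.0950). On the opposite strand, exons of Cep85l and Gm47644 overlap those of Pln, and whether counting used strand is not given.

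The ratio of inhibitor to pump within a library does not depend on how the library was scaled. Pln FPKM was 0.811, 0.789 and 0.775 times that of Atp2a2 at MI day 7, 0.510, 0.646 and 0.896 times at MI day 1, and 1.06, 1.17 and 1.13 times in sham hearts. The ratio was under 1 in each of the 6 infarcted libraries and above 1 in each of the 3 sham libraries. It averaged 0.791 ± 0.0181 at MI day 7, 0.684 ± 0.196 at MI day 1 and 1.12 ± 0.0524 in sham hearts (SD, n = 3 each). On the log2 scale the ratio was lower than in sham hearts by -0.50 at MI day 7 and by -0.75 at MI day 1, each with p = 0.1 in a two-sided exact permutation test, the smallest p that 3 libraries against 3 allow. Between MI day 7 and MI day 1 the log2 difference was 0.25 (exact permutation p = 0.4), and it was 0.06 without MI day 1 replicate 1 and 0.46 without MI day 1 replicate 3.

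**Figure D2:**
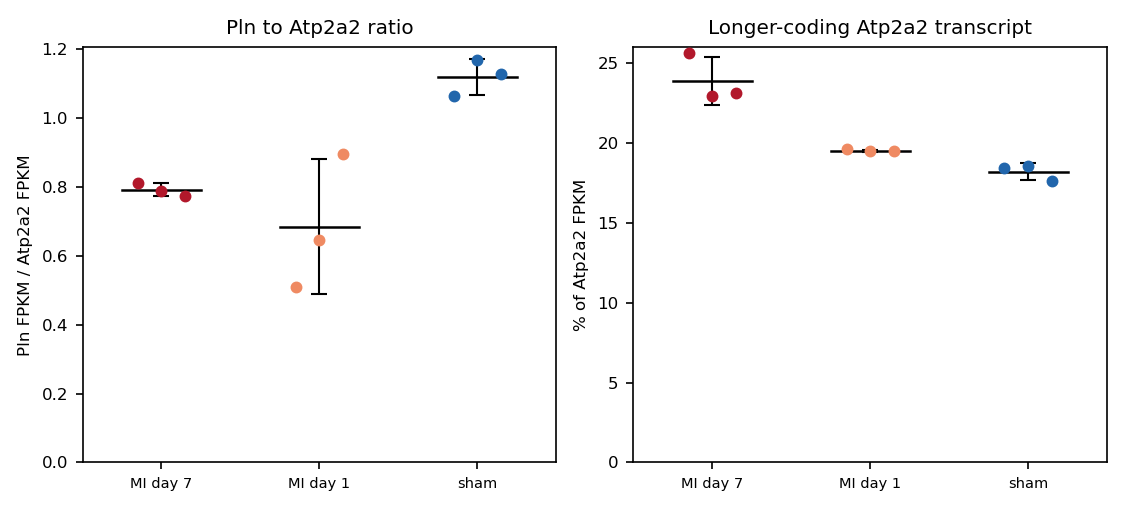
Left, the ratio of Pln to Atp2a2 FPKM in each library; right, the share of Atp2a2 FPKM held by the transcript with the longer coding end, in percent (points are libraries, lines the mean and bars the SD of 3 libraries, with MI day 7, MI day 1 and sham from left to right). The ratio lies at 0.896 or less in the infarcted libraries and at 1.06 or more in sham hearts, and the share is highest at MI day 7 in every library.

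Sarcolipin, the product of Sln (ENSMUSG00000042045, chromosome 9), is a short relative of phospholamban that in mice is found mainly in the atria and in skeletal muscle. Its coding sequence of 96 bases, for 31 amino acids, is shown beside that of Pln as the other small inhibitor of the pump.
Sln coding sequence, GENCODE M21 (GRCm38, chromosome 9): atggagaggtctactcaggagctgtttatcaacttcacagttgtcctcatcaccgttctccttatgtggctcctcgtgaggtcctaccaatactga
Sln had 386, 56.7 and 70.1 FPKM at MI day 7, 741, 377 and 18.9 FPKM at MI day 1, and 441, 5.19 and 13.4 FPKM in sham hearts. Each group thus held libraries with very different levels, and the groups overlapped. The log2 difference from sham hearts was 1.78 at MI day 7 (SE 1.78, limma adjusted p = 0.464) and 2.38 at MI day 1 (SE 1.78, limma adjusted p = 0.346), with 95% intervals of -2.27 to 5.83 and -1.67 to 6.43, so neither a rise nor a fall could be told from the spread between libraries. Leaving out 1 library moved these values to between 0.55 and 3.63 at MI day 7 and between 1.15 and 4.23 at MI day 1. Sln moved with atrial genes. The atrial light chain gene Myl7 had 497, 127 and 227 FPKM at MI day 7, 2403, 928 and 35.0 FPKM at MI day 1, and 619, 13.2 and 30.1 FPKM in sham hearts. The libraries with the most Myl7 in each group were those with the most Sln. The 6 atrial markers summed to 743 to 5064 FPKM at MI day 7, 265 to 10366 FPKM at MI day 1 and 223 to 2258 FPKM in sham hearts. The level of Myl7 was used as a covariate in an alternative chosen after seeing the data. The log2 difference of Sln from sham hearts was then -0.16 at MI day 7 (limma adjusted p = 0.784, range over settings 0.112 to 0.856) and -0.39 at MI day 1 (limma adjusted p = 0.542, range over settings 0.0846 to 0.703). Myl7 and Sln correlated at r = 0.983 over the same 9 libraries. This fit thus takes away most of any Sln difference, and the source of that difference was not tested. With this covariate Pln was still called lower at both times (-1.16 and -1.01).

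**Figure D3:**
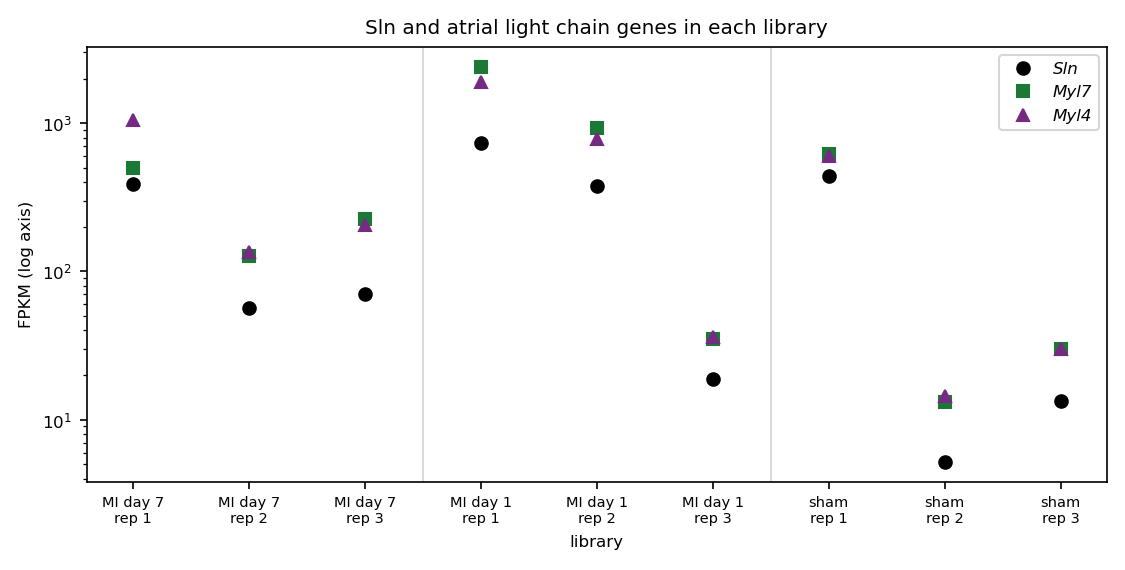
Level in FPKM, on a log axis, of Sln and of the atrial light chain genes Myl7 and Myl4 in each of the 9 libraries, with MI day 7, MI day 1 and sham from left to right. The 3 genes are high together in MI day 7 replicate 1, MI day 1 replicates 1 and 2 and sham replicate 1, with Sln at 377 FPKM or more there and at 70.1 FPKM or less in the other 5 libraries.

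The ryanodine receptor gene Ryr2 (ENSMUSG00000021313, chromosome 13), whose product is the release channel of the store, did not pass the test in either comparison with sham hearts. Ryr2 had 85.2, 112 and 140.2 FPKM at MI day 7, 163, 125.5 and 133 FPKM at MI day 1, and 127, 144.5 and 144 FPKM in sham hearts. The infarcted libraries lay on both sides of the sham range. Its log2 difference from sham hearts was -0.33 at MI day 7 (SE 0.18, limma adjusted p = 0.190, 95% interval -0.74 to 0.08) and 0.01 at MI day 1 (SE 0.18, limma adjusted p = 0.965, 95% interval -0.40 to 0.42). The interval at MI day 1 excludes a fall as large as that of Pln. At MI day 7 the value was -0.14 without MI day 7 replicate 1 and -0.50 without MI day 7 replicate 3. The sign of the small value at MI day 1 turned without MI day 1 replicate 1 (-0.10) and without sham replicate 1 (-0.05).

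Triadin, from Trdn (ENSMUSG00000019787, chromosome 10), anchors calsequestrin at the release channel. Trdn had 32.0, 48.4 and 45.7 FPKM at MI day 7, 43.9, 36.9 and 48.5 FPKM at MI day 1, and 67.7, 67.4 and 68.4 FPKM in sham hearts. The 3 sham libraries were nearly equal and all 6 infarcted libraries lay below them. Trdn fell at MI day 7 (log2 fold change -0.70, SE 0.16, limma adjusted p = 0.0138) and at MI day 1 (-0.65, SE 0.16, limma adjusted p = 0.0192). The call at MI day 7 held without any single library. That at MI day 1 was lost without MI day 1 replicate 2 or any sham library (adjusted p 0.0516 to 0.0715; range over settings 0.00263 to 0.725).

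Casq2 (ENSMUSG00000027861, chromosome 3) encodes the calsequestrin of heart muscle, the main calcium buffer of the store. Casq2 had 149.6, 188 and 226 FPKM at MI day 7, 166, 131 and 154.5 FPKM at MI day 1, and 239, 334 and 280.1 FPKM in sham hearts. No infarcted library reached the sham range, though MI day 7 replicate 3 came close to it. Casq2 fell at MI day 7 (log2 fold change -0.60, SE 0.18, limma adjusted p = 0.0348) and at MI day 1 (-0.91, SE 0.18, limma adjusted p = 0.00991). The call at MI day 7 was lost without MI day 7 replicate 1 or 2 or sham replicate 2 or 3 (adjusted p 0.0750 to 0.117; range over settings 0.0220 to 0.722), while that at MI day 1 held without any single library.

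The histidine-rich calcium binding protein, from Hrc (ENSMUSG00000038239, chromosome 7), binds calcium in the store and meets both triadin and the pump. Hrc had 76.7, 192 and 209 FPKM at MI day 7, 187.5, 173 and 183 FPKM at MI day 1, and 279, 296 and 229.9 FPKM in sham hearts. All infarcted libraries lay below all sham libraries, and MI day 7 replicate 1 lay far below the rest. The test was not passed at either time, with log2 differences of -0.87 at MI day 7 (SE 0.33, limma adjusted p = 0.0724) and -0.56 at MI day 1 (SE 0.33, limma adjusted p = 0.237). Hrc was called lower at MI day 1 without MI day 7 replicate 1 (adjusted p = 0.00990, range over settings 0.00990 to 0.530), and at MI day 7 without MI day 7 replicate 3 (-1.13, adjusted p = 0.0381, range over settings 0.0381 to 0.414). Without MI day 7 replicate 1 its log2 difference at MI day 7 was -0.41.

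S100a1 (ENSMUSG00000044080, chromosome 3) encodes a small calcium sensor that binds the pump and the ryanodine receptor and favours calcium cycling in heart muscle. S100a1 had 399, 460.3 and 504.5 FPKM at MI day 7, 337, 339.5 and 477 FPKM at MI day 1, and 691, 972 and 618 FPKM in sham hearts. All infarcted libraries lay under all sham libraries, of which sham replicate 2 was the highest. S100a1 fell at MI day 7 (log2 fold change -0.72, SE 0.21, limma adjusted p = 0.0297) and at MI day 1 (-0.97, SE 0.21, limma adjusted p = 0.0117). The call at MI day 7 was lost without MI day 7 replicate 1 or 2 or sham replicate 1 or 2 (adjusted p 0.0571 to 0.0934; range over settings 0.0205 to 0.774).

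At the surface membrane, Cacna1c (ENSMUSG00000051331, chromosome 6) encodes the pore of the L-type calcium channel. Cacna1c had 23.3, 29.0 and 34.2 FPKM at MI day 7, 37.6, 35.3 and 39.1 FPKM at MI day 1, and 42.3, 48.2 and 50.6 FPKM in sham hearts. The 3 groups did not overlap: MI day 7 was lowest, MI day 1 lay between and sham hearts were highest. Cacna1c fell at MI day 7 (log2 fold change -0.70, SE 0.14, limma adjusted p = 0.00888), and that call held without any single library. The log2 difference at MI day 1 was -0.32 (SE 0.14, limma adjusted p = 0.110), and it was called without MI day 7 replicate 1 (adjusted p = 0.0438, range over settings 0.0332 to 0.761). Of its 18 transcript entries 3 held over 10% of its FPKM each, on average 42.7%, 26.5% and 12.04%, and 12 held under 1%. The leading entry (ENSMUST00000187940) held 37.1%, 38.9% and 41.9% of Cacna1c FPKM at MI day 7, 43.6%, 41.5% and 43.9% at MI day 1, and 48.0%, 42.5% and 46.7% in sham hearts. Its share at MI day 7 lay under the sham range in every library by a narrow margin (41.9% or less against 42.5% or more). The shares of the other entries over 10% overlapped with the sham range. No test was made on these shares, which also rest on how reads were divided among entries.

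The sodium-calcium exchanger gene Slc8a1 (ENSMUSG00000054640, chromosome 17) makes the protein that removes calcium from the cell in exchange for sodium. Slc8a1 had 139, 131 and 166 FPKM at MI day 7, 162, 122 and 143.5 FPKM at MI day 1, and 172, 184.5 and 173.5 FPKM in sham hearts. All infarcted libraries were under all sham libraries, by a small margin. The test was not passed, with log2 differences of -0.29 at MI day 7 (SE 0.13, limma adjusted p = 0.125) and -0.32 at MI day 1 (SE 0.13, limma adjusted p = 0.105). In TPM the log2 differences of Slc8a1 were 0.07 at MI day 7 and -0.04 at MI day 1. Exons of AC122399.1 and Gm11096 on the opposite strand overlap those of Slc8a1, as those of Gm43361 overlap Atp2a2. For the 7 genes other than these and Pln, no exon of another gene overlapped in GENCODE M21.

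Each member was also set against the mean log2 level of the 12 sarcomere genes in the same library, as a measure relative to other genes of the muscle cell. These 12 genes differed among themselves. Before centring, their log2 differences ran from -1.22 (Myl2) to -0.25 (Tpm1) at MI day 1, where Pln had -1.23. At MI day 7 they ran from -1.02 (Myl2) to -0.24 (Tpm1), where Pln had -1.32. This centring moved all genes up alike: the median over all genes was 0.65 at MI day 7 and 0.70 at MI day 1, where 60.4% and 67.7% of all genes were called higher and 0.784% and 0.592% lower. A value near 0 on this scale is thus low among all genes and at the level of the sarcomere genes. Pln was still called lower, at -0.83, -0.46 and -0.47 relative to the sarcomere mean in the MI day 7 libraries, -0.64, -0.39 and -0.32 at MI day 1, and 0.07, 0.07 and 0.07 in sham hearts. Its difference was -0.65 at MI day 7 (SE 0.16, limma adjusted p = 0.00649) and -0.52 at MI day 1 (SE 0.16, limma adjusted p = 0.0137). Ryr2 stood at -3.62, -3.61 and -3.56 at MI day 7, -2.99, -3.18 and -3.45 at MI day 1, and -3.95, -3.99 and -3.86 in sham hearts. Relative to the sarcomere genes every infarcted library was thus above every sham library, with a difference of 0.34 at MI day 7 (SE 0.15, limma adjusted p = 0.0718) and 0.73 at MI day 1 (SE 0.15, limma adjusted p = 0.00357). Relative to the median of all genes on the same scale, Ryr2 was at -0.31 and 0.02, close to the typical gene at MI day 1. Cacna1c had values of -0.04 at MI day 7 and 0.39 at MI day 1 (limma adjusted p = 0.835 and 0.0372), and Slc8a1 of 0.38 and 0.40 (limma adjusted p = 0.0639 and 0.0501), all of which lay under the median of all genes. Atp2a2 (-0.15 and 0.23), Casq2 (0.06 and -0.19), Trdn (-0.04 and 0.06), Hrc (-0.21 and 0.15) and S100a1 (-0.06 and -0.26) did not pass the test at either time. Of the called genes 98.7% at MI day 7 and 99.1% at MI day 1 were higher on this scale.

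**Figure D4:**
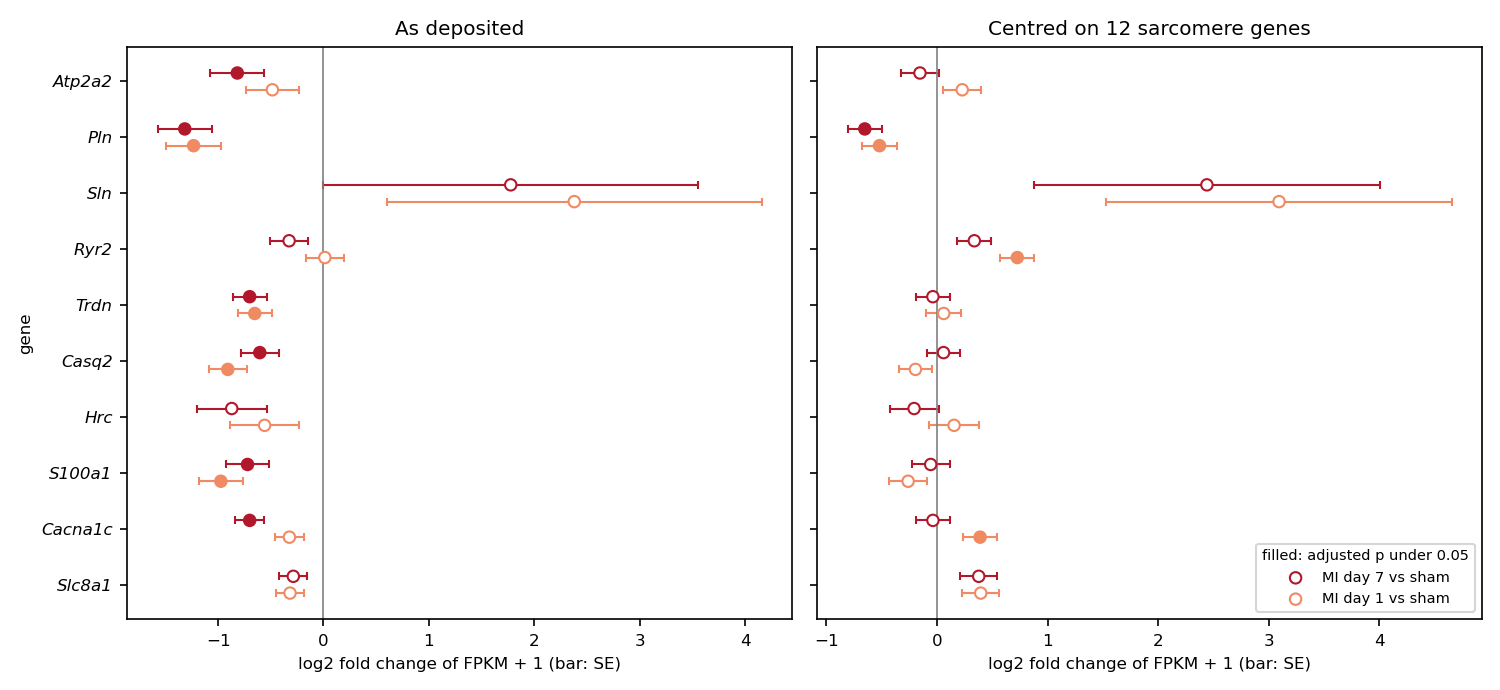
Log2 fold change of FPKM + 1 against sham hearts with its SE for each gene at MI day 7 and MI day 1, from the deposited values (left) and after centring each library on 12 sarcomere genes (right); filled points passed limma at an adjusted p under 0.05. On the left 6 and 4 genes are filled, all lower; on the right Pln is lower at both times, while all genes together have a median of 0.65 at MI day 7 and 0.70 at MI day 1, so that the filled points of Ryr2 and Cacna1c at MI day 1 lie near and under the typical gene.

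MI day 7 and MI day 1 were also compared directly, and no member was called in either direction by limma, where 2.71% of all genes were called higher and 2.14% lower. At an unadjusted p under 0.05, 0 members were higher and 1, Cacna1c, was lower (log2 difference -0.38, SE 0.14, unadjusted p = 0.0229, limma adjusted p = 0.145). Cacna1c was also the 1 member whose 2 groups did not overlap, which was so in the lower direction for 14.1% and in the higher for 13.1% of all genes. The log2 difference was -0.33 for Atp2a2, -0.34 for Ryr2, -0.31 for Hrc, -0.60 for Sln, 0.30 for Casq2 and 0.25 for S100a1, none of which passed the test. For Pln it was -0.08 (95% interval -0.67 to 0.50), for Trdn -0.05 (95% interval -0.41 to 0.32) and for Slc8a1 0.03 (95% interval -0.27 to 0.33).

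A further 5 lists of calcium handling genes, with 62 genes in all, were set beside the members. The file held 60 of them and 55 were tested; Strit1 and Mcub were not matched. At MI day 7, 7 of the 55 were called higher than in sham hearts and 9 lower, and at MI day 1, 7 were higher and 11 lower, with medians of -0.09 and -0.04. In percent, 12.7% were called higher and 16.4% lower at MI day 7, beside 15.7% and 17.3% of all genes, and at MI day 1 these were 7 and 11 of 55, beside 13.4% and 14.7% of all genes. The lists thus held genes called in both directions. The counts of each single list below stand beside these same shares of all genes. Leaving out libraries moved the counts. Without sham replicate 2 the counts were 4 higher and 3 lower at MI day 7, and 4 higher and 3 lower at MI day 1. Without MI day 7 replicate 1, 4 were higher at MI day 7. Without MI day 1 replicate 2, 4 were higher and 3 lower at MI day 1, and without sham replicate 3, 7 were lower at MI day 1. Between MI day 7 and MI day 1, 2 were called higher (Cacnb1 and Cacnb3) and 1 lower (Calr) by limma; only Cacnb3 and Calr reached the 5 FPKM set for a description.

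Among 8 tested genes for uptake and storage, none was called at MI day 7 by limma (0 higher and 1 lower at an unadjusted p under 0.05). At MI day 1, Calr, whose product calreticulin is the calcium-binding chaperone of the endoplasmic reticulum in most cells, rose to 359 ± 20.4 FPKM, against 201 ± 14.3 FPKM in sham hearts (SD, n = 3 each; log2 fold change 0.83, SE 0.11, limma adjusted p = 0.00292). Tmem38a, a potassium channel of the store membrane, fell at MI day 1 to 64.2 ± 7.21 FPKM, against 111 ± 15.3 FPKM in sham hearts (-0.78, SE 0.20, limma adjusted p = 0.0218). The call of Tmem38a was lost without MI day 1 replicate 2 or sham replicate 1 or 2 (adjusted p 0.0517 to 0.0799).

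Of 11 tested partners of the release unit, 2 were higher and 2 lower at MI day 7, and 1 was higher and 3 lower at MI day 1. At MI day 7 this was 18.2% each way, near the 15.7% higher and 17.3% lower of all genes. At MI day 1 it was 9.09% higher and 27.3% lower, beside 13.4% and 14.7% of all genes. Jph2, whose product junctophilin holds the store membrane next to the surface membrane, averaged 52.0 ± 12.3 FPKM at MI day 7, 44.2 ± 4.92 FPKM at MI day 1 and 86.3 ± 11.2 FPKM in sham hearts, and fell at both times (log2 fold change -0.74 and -0.95, limma adjusted p = 0.0155 and 0.00743). Asph, whose gene also encodes junctin, a partner of triadin, fell at both times as well (-0.74 and -0.82, limma adjusted p = 0.00654 and 0.00482). Bin1, which shapes the tubules of the surface membrane, rose at both times (0.60 and 0.71, limma adjusted p = 0.00860 and 0.00539). Casq1, the calsequestrin typical of skeletal muscle, fell at MI day 1 (-0.94, SE 0.26, limma adjusted p = 0.0293), a call that was lost without MI day 1 replicate 2 or 3 or sham replicate 2 or 3 (adjusted p 0.0743 to 0.101), and Jph2 at MI day 7 lost its call without sham replicate 2 (adjusted p = 0.0576, range over settings 0.00801 to 0.661).

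Of 13 tested channel subunits and surface transporters, 3 were higher and 1 lower at MI day 7, and 3 were higher and 2 lower at MI day 1. The genes of 2 beta subunits of the L-type channel moved in opposite directions at both times. Cacnb2, the main beta subunit of heart muscle, averaged 16.5 ± 3.23 FPKM at MI day 7, 16.7 ± 2.57 FPKM at MI day 1 and 26.7 ± 2.27 FPKM in sham hearts, and fell at both times (log2 fold change -0.67 and -0.65, limma adjusted p = 0.0136 and 0.0164). Cacnb3, a beta subunit also used outside muscle, averaged 6.40 ± 0.746 FPKM at MI day 7, 3.25 ± 0.606 FPKM at MI day 1 and 1.96 ± 0.360 FPKM in sham hearts, and rose at both times (1.33 and 0.52, limma adjusted p = 0.00174 and 0.0259). Its call at MI day 1, where its level lies below the rule for naming genes, was lost without MI day 1 replicate 1 or 2, or sham replicate 2 or 3 (adjusted p 0.0524 to 0.0885 without the library; 0.00452 to 0.161 over all settings). Orai3, of the store-operated calcium channels, rose slightly at both times (0.33 and 0.28, limma adjusted p = 0.0109 and 0.0217). Without sham replicate 2 the calls of Cacnb2 at both times and of Orai3 at MI day 1 were lost, as they were at MI day 1 without MI day 1 replicate 2, and for Orai3 without sham replicate 1 (adjusted p 0.0518 to 0.0839).

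Of 15 tested signalling genes, 0 were higher and 4 lower at MI day 7 by limma (1 higher and 5 lower at an unadjusted p under 0.05), and 1 was higher and 2 lower at MI day 1. Camk2d, the main calmodulin-dependent kinase of heart muscle, which phosphorylates phospholamban and the ryanodine receptor, averaged 47.8 ± 7.22 FPKM at MI day 7, 45.7 ± 3.01 FPKM at MI day 1 and 69.1 ± 9.41 FPKM in sham hearts, and fell at both times (log2 fold change -0.52 and -0.58, limma adjusted p = 0.0199 and 0.0153). The catalytic subunit gene of protein kinase A, Prkaca, fell at MI day 7 (-0.44, SE 0.13, limma adjusted p = 0.0318), and so did Camk2a (-0.80, SE 0.26, limma adjusted p = 0.0438; -0.43 without MI day 7 replicate 1). Ppp1cb, a catalytic subunit of the phosphatase that dephosphorylates phospholamban, fell at both times (-0.54 and -0.44, limma adjusted p = 0.00945 and 0.0194). Without sham replicate 2 the calls of Camk2d at both times and of Ppp1cb at MI day 1 were lost (adjusted p 0.0549 to 0.0707). So were that of Camk2d at MI day 7 without MI day 7 replicate 1 or 2, those of both genes at MI day 1 without MI day 1 replicate 2, and that of Ppp1cb without MI day 1 replicate 1 (adjusted p 0.0514 to 0.0740).

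Of 8 tested genes of mitochondrial calcium transport, 2 were higher and 2 lower at MI day 7, and 1 was higher and 3 lower at MI day 1. The outer membrane channel gene Vdac2 averaged 152 ± 20.9 FPKM at MI day 7, 155 ± 21.9 FPKM at MI day 1 and 229.7 ± 6.88 FPKM in sham hearts, and fell at both times (log2 fold change -0.60 and -0.57, limma adjusted p = 0.0132 and 0.0168). Vdac1 fell at MI day 7 (-0.49, SE 0.15, limma adjusted p = 0.0361; -0.33 without MI day 7 replicate 1). Slc8b1, for the mitochondrial sodium-calcium exchanger, rose at MI day 7 (0.40, SE 0.10, limma adjusted p = 0.0181). The uniporter partners Micu2 and Smdt1 fell at MI day 1 (-0.37 and -0.30, limma adjusted p = 0.0234 and 0.0452). Calls of Vdac2 and Micu2 at MI day 1 were lost without MI day 1 replicate 2 or sham replicate 2 or 3, and that of Micu2 also without MI day 1 replicate 1 (adjusted p 0.0511 to 0.0885). That of Slc8b1 was lost without MI day 7 replicate 1 or 2 or sham replicate 2 (adjusted p 0.0544 to 0.0653). Smdt1 at MI day 1, and Vdac1, Camk2a and Prkaca at MI day 7, each lost the call without at least 5 of the 9 libraries taken singly (adjusted p 0.0522 to 0.1535).

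**Figure D5:**
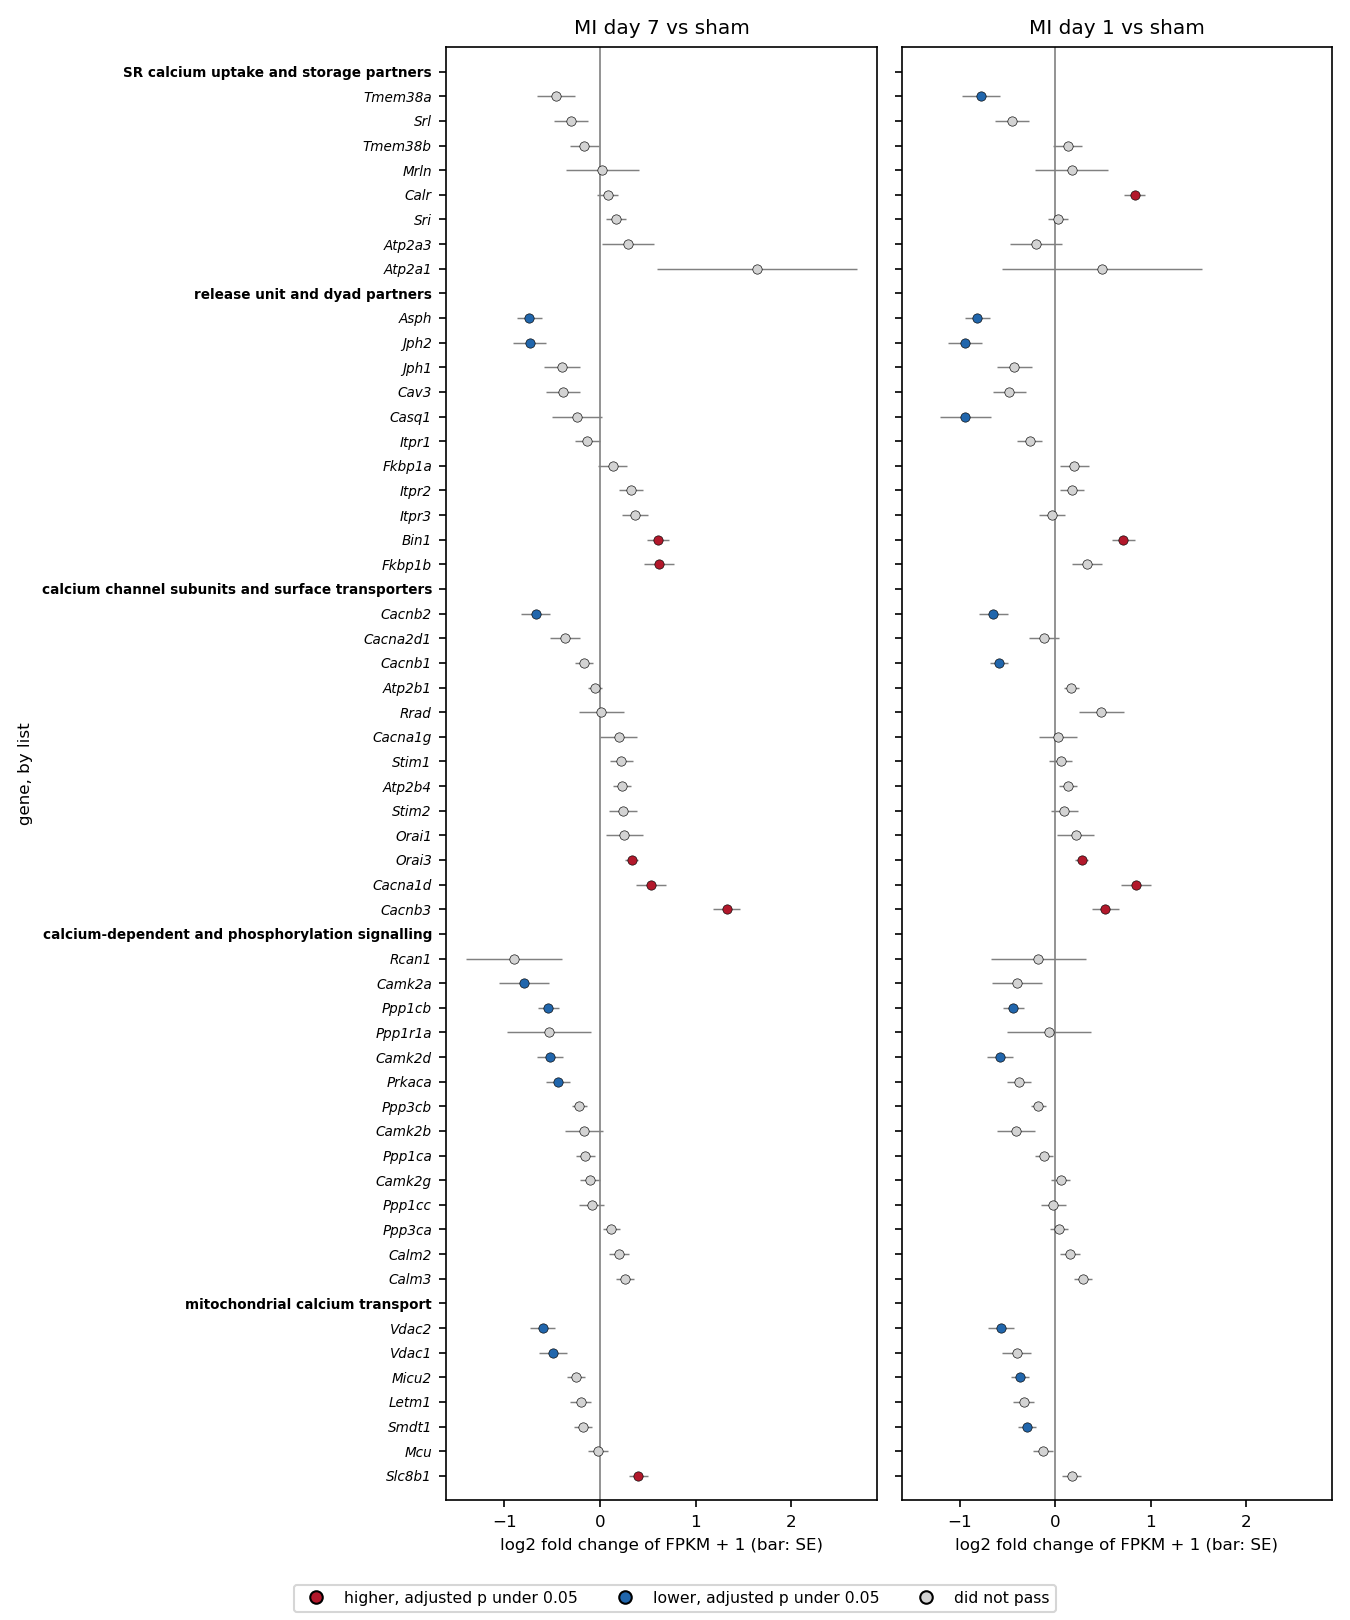
Log2 fold change of FPKM + 1 against sham hearts with its SE for 53 of the tested genes of 5 calcium handling lists, at MI day 7 (left) and MI day 1 (right); red points were called higher and blue points lower by limma at an adjusted p under 0.05. Each side holds calls in both directions, with 6 higher and 9 lower of the genes drawn at MI day 7 and 5 higher and 11 lower at MI day 1. Of all genes tested, 15.7% were called higher and 17.3% lower at MI day 7, and 13.4% and 14.7% at MI day 1.

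RefSeq promoter windows (GRCm38.p6, 250 bases before to 50 after the transcript start) were found for 7 of the 10 members. Those of the 3 genes called lower at both times that had a window, and that of Ryr2, which was not called, are shown so that the sequences can be set beside the values. The capitals mark GATAA on either strand, the core of sites for GATA factors.
Pln, chr10:53337436-53337735, plus strand: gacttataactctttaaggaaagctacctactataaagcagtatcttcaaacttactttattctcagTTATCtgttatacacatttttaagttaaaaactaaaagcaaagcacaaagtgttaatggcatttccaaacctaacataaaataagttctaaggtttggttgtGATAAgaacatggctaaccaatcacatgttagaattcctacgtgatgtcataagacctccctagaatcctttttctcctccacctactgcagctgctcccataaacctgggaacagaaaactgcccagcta
Casq2, chr3:102086165-102086464, plus strand: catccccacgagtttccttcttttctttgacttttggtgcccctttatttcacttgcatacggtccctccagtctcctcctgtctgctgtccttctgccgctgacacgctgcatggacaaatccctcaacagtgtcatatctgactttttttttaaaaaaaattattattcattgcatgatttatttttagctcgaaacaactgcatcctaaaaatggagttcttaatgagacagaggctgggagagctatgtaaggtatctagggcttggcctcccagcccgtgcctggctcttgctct
S100a1, chr3:90514281-90514580, minus strand: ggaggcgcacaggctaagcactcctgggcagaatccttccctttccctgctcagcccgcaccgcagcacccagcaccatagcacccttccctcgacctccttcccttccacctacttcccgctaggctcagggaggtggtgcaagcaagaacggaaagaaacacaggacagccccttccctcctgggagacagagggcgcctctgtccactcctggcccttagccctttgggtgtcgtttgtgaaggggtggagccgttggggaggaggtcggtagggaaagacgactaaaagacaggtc
Ryr2, chr13:12106896-12107195, minus strand: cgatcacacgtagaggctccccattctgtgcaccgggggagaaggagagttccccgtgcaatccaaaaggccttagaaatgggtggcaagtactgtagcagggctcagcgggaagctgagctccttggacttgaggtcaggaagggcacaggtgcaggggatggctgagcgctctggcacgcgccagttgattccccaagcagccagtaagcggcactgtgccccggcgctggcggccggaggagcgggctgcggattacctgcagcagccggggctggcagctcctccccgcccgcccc
GATAA stood in the windows of Pln (2 matches, 183 and 81 bases before the start), Slc8a1 (2 matches) and Hrc (1 match), and in none of those of Casq2, S100a1, Ryr2 and Cacna1c, while 25.4% of all 32851 windows held it. Neither CTA and TAG with 4 bases between them, a form of the frame of MEF2 sites, nor CATTCC, the M-CAT core, was found in any member window on either strand. These strings stood in 3.69% and 14.7% of all windows. Other forms of the MEF2 frame were not counted, such as those with TTA in place of CTA. The Casq2 window holds a stretch of that form, ttatttttag, so MEF2-type sites as a whole were not counted. CANNTG, and CC and GG with 6 bases between them, were also counted, and as 72.3% and 73.3% of all windows held them, their presence in the member windows separates few genes. Genes that fell and genes that were not called both occurred with and without GATAA.

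The genes most like a member across the 9 libraries were named by Pearson correlation of log2(FPKM + 1), as a description without a test, since the libraries share the differences between groups and in scaling. For Pln they were Mrpl45 (r = 0.997), Dnaja3 (0.995), Mrpl11 (0.994), Gpr157 (0.992) and Ptcd3 (0.992). For Atp2a2 they were Fitm2 (0.990), Tmx2 (0.982), Gm37829 (0.981), Idh3a (0.978) and Nqo2 (0.976). For Sln they were the atrial genes Myl4 (0.991), Mybphl (0.985) and Myl7 (0.983), then Fgf12 (0.959) and Stard10 (0.957). Among the members, Pln and Trdn were the most alike (r = 0.967 over 9 libraries), and Sln and S100a1 the least (r = -0.68).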

How the data were processed

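Bulk RNA sequencing was measured in 9 libraries of mouse hearts, 3 per group. The deposited values are FPKM computed by the authors, per the labels, for 55361 transcript entries. TRIzol served for RNA extraction and a VAHTS Universal V6 kit for library preparation, per the labels' protocols. HISAT2 2.1.0, HTSeq 0.11.2 and FastQC 0.11.9 were run by the submitters on the build GRCm39, per the submitters' processing notes. No source used here names the annotation release, the use of strand in counting or the step that divided reads among transcripts. The depth of each library is unknown.

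FPKM were summed over the transcripts of a gene, which gave 25468 genes; the plan had assumed a single value per gene in the file. A pseudocount of 1 was added, genes with a mean of 1 FPKM or more were kept (13514), and limma 3.58.1 (R 4.3.3) with an intensity trend was fitted to log2(FPKM + 1) of all 9 libraries with 1 mean per group. A fold change is thus on the log2(FPKM + 1) scale and understates the change of low genes. P-values were adjusted by Benjamini-Hochberg over all genes tested, with calls made at adjusted p under 0.05. The fit was tested on simulated data before use. The log2 ratio of Pln to Atp2a2 was tested by exact permutation of 3 libraries against 3. Python 3.11.15, pandas 2.3.3 and scipy 1.17.1 were used for the rest.

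The members and lists were chosen with earlier results of these data known. Named genes were the 10 members, of each list and comparison up to 4 called genes with the largest change and 5 FPKM or more in the higher group, and the 5 genes most like Atp2a2, Pln and Sln. Cacnb1 was named after its value was seen. Of the genes that this rule names, 2 are counted but not reported here. The Myl7 covariate was chosen after seeing the data. Alternatives changed the pseudocount, the filter, the scaling, the limma options, the libraries used and the replicate block. GENCODE M21 (GRCm38), another build than the authors' own, served for coding sequences and for overlaps of exons; promoter windows are RefSeq sequences of GRCm38.p6, and their coordinates are of that build only.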

Additional observations from a re-analysis of the deposited data

Results flagged for a closer look

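Calr, for calreticulin, differed between MI day 7 and MI day 1 by the test of that difference itself. The log2 difference was -0.75 (SE 0.11, limma adjusted p = 0.0134, range over alternative settings 0.00656 to 0.115). By this test its effect against the shared sham libraries was not the same at the 2 times, though the call did not hold in every setting. Calr averaged 214 ± 19.7 FPKM at MI day 7, 359 ± 20.4 FPKM at MI day 1 and 201 ± 14.3 FPKM in sham hearts (SD, n = 3 each). The call was lost in 5 of 25 alternative settings. These were TPM, centring on the sarcomere list, only the 2 groups compared and the removal of both airway libraries. It was also lost without MI day 1 replicate 2 alone (limma adjusted p = 0.0545), which held airway markers.

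Cacnb3, a beta subunit of the L-type calcium channel, differed between MI day 7 and MI day 1 in the same way (log2 difference 0.81, SE 0.14, limma adjusted p = 0.0221, range over alternative settings 0.00516 to 0.357). Its level was 6.40 ± 0.746 FPKM at MI day 7, 3.25 ± 0.606 FPKM at MI day 1 and 1.96 ± 0.360 FPKM in sham hearts (SD, n = 3 each). The call was lost in 7 of 24 alternative settings. Among them were TPM, centring on the sarcomere list, only the 2 groups compared and the removal of both airway libraries. It was also lost without MI day 7 replicate 1 or 3 or MI day 1 replicate 2 (limma adjusted p 0.0569 to 0.0631). No explanation was tested for either gene.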

How the results depend on the processing

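Depth is unknown, so counting error could not be separated from the spread between libraries, and with 3 libraries a group the exact test cannot reach p under 0.1. Results across genes were recomputed under 25 alternatives. The log2 ratio of Pln to Atp2a2, which scaling does not touch, kept its direction with a pseudocount of 0.1, from the most expressed transcripts and without each library. No member was called higher under any alternative except centring on the sarcomere list.

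The 6 members called lower at MI day 7 became 3 with no filter, with quantile normalization, in TPM, in TPM without mitochondrially encoded genes, without both libraries with airway markers and with the Myl7 covariate, 1 when centred on the sarcomere list, and 3 to 7 when leaving out 1 library. The 4 at MI day 1 became 7 with only the 2 groups compared, 0 without both libraries with airway markers, 1 when centred (with 2 then higher) and 3 to 7 when leaving out 1 library. Over all genes tested, 146 in place of 1993 were called lower at MI day 1 without both libraries with airway markers. The cause was not tested.

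Over the 5 lists, the 7 called higher and 9 lower at MI day 7 became 16 and 1 in TPM, 17 and 5 in TPM without mitochondrially encoded genes, and 33 and 0 when centred. With quantile normalization 5 were lower, with a mean of 5 FPKM or more 3 were higher, and without both airway libraries 4 were higher. Leaving out 1 library gave 4 to 8 higher and 3 to 10 lower. The 7 higher and 11 lower at MI day 1 became 11 and 4 in TPM, 13 and 6 in TPM without mitochondrially encoded genes, 32 and 0 when centred, and 0 and 0 without both airway libraries. Array weights gave 18 lower and the Myl7 covariate 3 lower; leaving out 1 library gave 4 to 7 higher and 3 to 16 lower. Of the 2 higher and 1 lower between MI day 7 and MI day 1, 0 higher and 0 lower were left in TPM, when centred, with only the 2 groups compared and without both airway libraries. There were 0 higher with a mean of 5 FPKM or more. With no filter, quantile normalization, TPM without mitochondrially encoded genes and the replicate block, 1 was higher. Leaving out 1 library gave 0 to 2 higher and 0 to 1 lower. Without both airway libraries, calls over all 13514 genes also dropped. They went from 1817 higher and 1993 lower to 256 and 146 at MI day 1. Between MI day 7 and MI day 1 they went from 366 and 289 to 34 and 26.

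Single genes changed sign as follows, on the log2 scale. Centring on the sarcomere list shifts all genes up, to a median of 0.65 at MI day 7 and 0.70 at MI day 1, so that a small negative value turns positive by construction. On that scale values at MI day 7 were Ryr2 0.34, Casq2 0.059, Slc8a1 0.38, Ppp1cb 0.12, Camk2d 0.14, Prkaca 0.23, Vdac2 0.063 and Vdac1 0.17. At MI day 1 they were Atp2a2 0.23, Slc8a1 0.40, Cacna1c 0.39, Trdn 0.061, Hrc 0.15, Cacnb2 0.061, Camk2d 0.13, Ppp1cb 0.27, Vdac2 0.14, Micu2 0.34 and Smdt1 0.41. In TPM at MI day 7, Ryr2 was 0.031 and Slc8a1 0.071. With the Myl7 covariate Sln was -0.16 at MI day 7, -0.39 at MI day 1 and 0.23 between them. Ryr2 at MI day 1 was -0.00033 with array weights and -0.097 to 0.090 when leaving out 1 library. Between MI day 7 and MI day 1, array weights gave Pln 0.17 and Trdn 0.13, TPM gave Trdn 0.030, centring gave Slc8a1 -0.018, and omission of both airway libraries gave Slc8a1 -0.075. Leaving out 1 library gave Pln -0.30 to 0.21, Sln -2.18 to 0.43, Slc8a1 -0.075 to 0.13, Trdn -0.16 to 0.13 and Hrc -0.57 to 0.15.

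Whether replicate numbers pair the libraries is not known, and correlations between libraries could not settle it. The deviations of same-numbered libraries correlated at -0.07, -0.26 and -0.13 between MI day 7 and sham, at 0.27, -0.37 and 0.23 between MI day 1 and sham, and at 0.05, 0.23 and 0.18 between MI day 7 and MI day 1. Libraries of different number correlated at -0.11 to 0.23, -0.53 to 0.40 and -0.25 to 0.04 in the same order. Only between MI day 7 and MI day 1 were all same-numbered values the higher ones. With the replicate block, 4 members were called lower at MI day 7 and 4 at MI day 1.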
